A study of Homo sapiens with 20 samples.

Results

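The miR-200 axis is represented here by 10 genes out of 57087 in the gene table. They are the repressors ZEB1, ZEB2 and SNAI2, the epithelial genes CDH1, EPCAM, ESRP1, KRT8 and KRT18, and the mesenchymal genes CDH2 and VIM. They were taken from a list of names, and their estimated counts were added up over the transcripts of each gene in all 14 samples of mRNA-seq and chromatin-associated RNA-seq (chrRNA-seq). The cells were human HEK293, an embryonic kidney line that carries epithelial as well as neural features. The methods name HEK293T for wild type cells and HEK293T-REx for the inducible knockdown lines. mRNA-seq covered 3 wild type (wt) samples labelled HEK293T and 3 Dicer knockdown (shDicer) samples labelled HEK293 2B, and both groups had received 3 µg/ml doxycycline and were kept for 7 days. chrRNA-seq, in which RNA was taken from the chromatin fraction, covered 2 samples each of wt, shDicer, shAgo2 and Drosha knockdown (DroshaKD) cells, all labelled HEK293. In the shDicer and shAgo2 lines the short hairpin RNA is encoded in the genome and switched on with doxycycline, at 3 µg/ml for 72 h in chrRNA-seq, whereas the hairpin against Drosha was brought in on transfected plasmids. The methods describe a single shDicer clone that also carries a tagged Dicer transgene as well as a line with the hairpin alone, and which of them HEK293 2B is was not given in the sources used here. Whether the wt and DroshaKD cells of chrRNA-seq also received doxycycline is not given in the sources used here. No line with a scrambled hairpin is among these 14 samples, so the effect of a knockdown and the history of a cell line cannot be told apart.

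The miR-200 family consists of microRNAs that are abundant in epithelial cells, where they pair with the 3′UTRs of ZEB1 and ZEB2 mRNA and lower the amount of both proteins. ZEB1 and ZEB2 are zinc finger factors that bind E-boxes in promoters of epithelial genes such as CDH1, and also those of the miR-200 genes, and repress them. The mutual repression keeps a cell either epithelial or mesenchymal. A microRNA is cut from its primary transcript by Drosha in the nucleus, trimmed by Dicer in the cytoplasm and loaded into an Argonaute protein such as Ago2, so all 3 knockdowns act on the same production line. The comparisons below therefore ask how ZEB1 and ZEB2 and the epithelial genes stood against wt, and against each other, when any of the 3 proteins was targeted.

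The family falls into groups by the seed, the bases at positions 2 to 8 that find the target. The mature sequences (RefSeq, GRCh38.p14) show which letters the targets must hold, with the seed in capitals.
hsa-miR-200b-3p: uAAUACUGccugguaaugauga
hsa-miR-200c-3p: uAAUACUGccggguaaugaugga
hsa-miR-429: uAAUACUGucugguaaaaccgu
hsa-miR-200a-3p: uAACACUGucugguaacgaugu
hsa-miR-141-3p: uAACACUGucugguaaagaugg
hsa-miR-205-5p: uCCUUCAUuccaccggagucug
miR-200b, miR-200c and miR-429 shared a seed, and so did miR-200a and miR-141, which differ from the others at a single base of the seed. miR-205 is not a family member but also targets ZEB1 and ZEB2 in epithelial cells.

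A match to the miR-200 seeds is CAGTATT or CAGTGTT, and a match to miR-205 is ATGAAGG. They were searched on the transcript strand of the 3′UTR of 1 model per gene (GENCODE release 44, GRCh38). ZEB1 held 9 miR-200 matches in 2540 nt and ZEB2 held 9 in 5370 nt. Of the 19229 3′UTRs searched, 28.3% held at least 1 match and 8 held 9 or more. ESRP1 had 2 matches, SNAI2 had 1, and the other 6 genes had no such letters in the models searched. A longer match of 8 bases, which adds the A opposite the first base of the microRNA, was found 4 times in ZEB1 and 8 times in ZEB2. It was present in 8.73% of all 3′UTRs, and SNAI2 and ESRP1 had none. The following sites show how the matches lie in ZEB1 (plus strand) and ZEB2 (minus strand), each written 5′ to 3′ with the seed match in capitals.
ZEB1 chr10:31527622-31527647, miR-200b-3p seed: ttttatcttatCAGTATTatcactct
ZEB1 chr10:31528566-31528591, miR-200b-3p seed: ttcaaacctggCAGTATTaataccct
ZEB1 chr10:31528786-31528811, miR-200a-3p seed: atttgatttaaCAGTGTTatgttaac
ZEB1 chr10:31528071-31528096, miR-205-5p seed: tgtggtaacatATGAAGGatatgaca
ZEB2 chr2:144388982-144389007, miR-200b-3p seed: ctacaatgcatCAGTATTatgattcc
ZEB2 chr2:144388539-144388564, miR-200b-3p seed: attaattttgtCAGTATTacaccaaa
ZEB2 chr2:144388703-144388728, miR-200a-3p seed: ccatccttgtaCAGTGTTaagagggt
ZEB2 chr2:144389229-144389254, miR-200a-3p seed: aaaattttgtaCAGTGTTaaggccta
A match is a description of letters and not a measured binding site.

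The short gene models of the microRNAs themselves had few or no counts in the libraries. MIR200A, MIR200B, MIR429 and MIR205 had no counts in any of the 14 samples, and MIR200C and MIR141 stayed at or below 0.368 CPM (counts per 1e+06 of a library total adjusted by TMM scaling). Their longer host transcripts were seen on chromatin, MIR200CHG at 0.437 to 1.07 CPM and MIR205HG at 6.20 to 8.78 CPM, but did not exceed 0.089 and 0.162 CPM in mRNA-seq. Neither host differed from wt past the threshold of any chrRNA-seq comparison, and mature microRNAs were not measured in these libraries.

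The mRNA-seq samples held 10216430 to 17215978 estimated counts and the chrRNA-seq samples 17484067 to 21553760. On the unadjusted counts in genes, a floor of 3 counts was therefore worth 0.184 to 0.311 CPM in the former and 0.149 to 0.183 CPM in the latter, counting error alone considered. Every gene was tested with edgeR's quasi-likelihood test and Benjamini-Hochberg adjustment over all genes tested. A gene was called at an adjusted p below 0.001 in mRNA-seq. On chromatin the limit was 0.005 against wt for the shDicer and shAgo2 samples, and 0.05 for DroshaKD. DICER1 fell by 1.49 on the log2 scale in shDicer mRNA (adjusted p = 1.28e-07), but in shDicer chrRNA-seq its log2 change of −0.18 did not pass (adjusted p = 0.166). In shAgo2 chrRNA-seq DICER1 was called higher (0.78, adjusted p = 3.59e-05). AGO2 fell by 0.62 in shAgo2 chrRNA-seq (adjusted p = 9.29e-05). DROSHA stood at 166 and 148 CPM in the libraries labelled DroshaKD against 146 and 153 CPM in wt (log2 change 0.07, adjusted p = 0.697), so these libraries carry their label without a lower DROSHA level on chromatin. The paper used qRT-PCR for steady-state RNA of the 3 targeted genes in its chrRNA-seq samples. It also presents western blots as showing knockdown of the 3 proteins. Those are other measures than RNA of the chromatin fraction, and were not examined here. Nothing in the sources says that the samples of a group came from separate cultures, so the p-values measure the spread between these samples, which may be technical. In RNA from whole cultures, fewer cells of a type and less RNA per cell cannot be told apart.

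**Figure D1:**
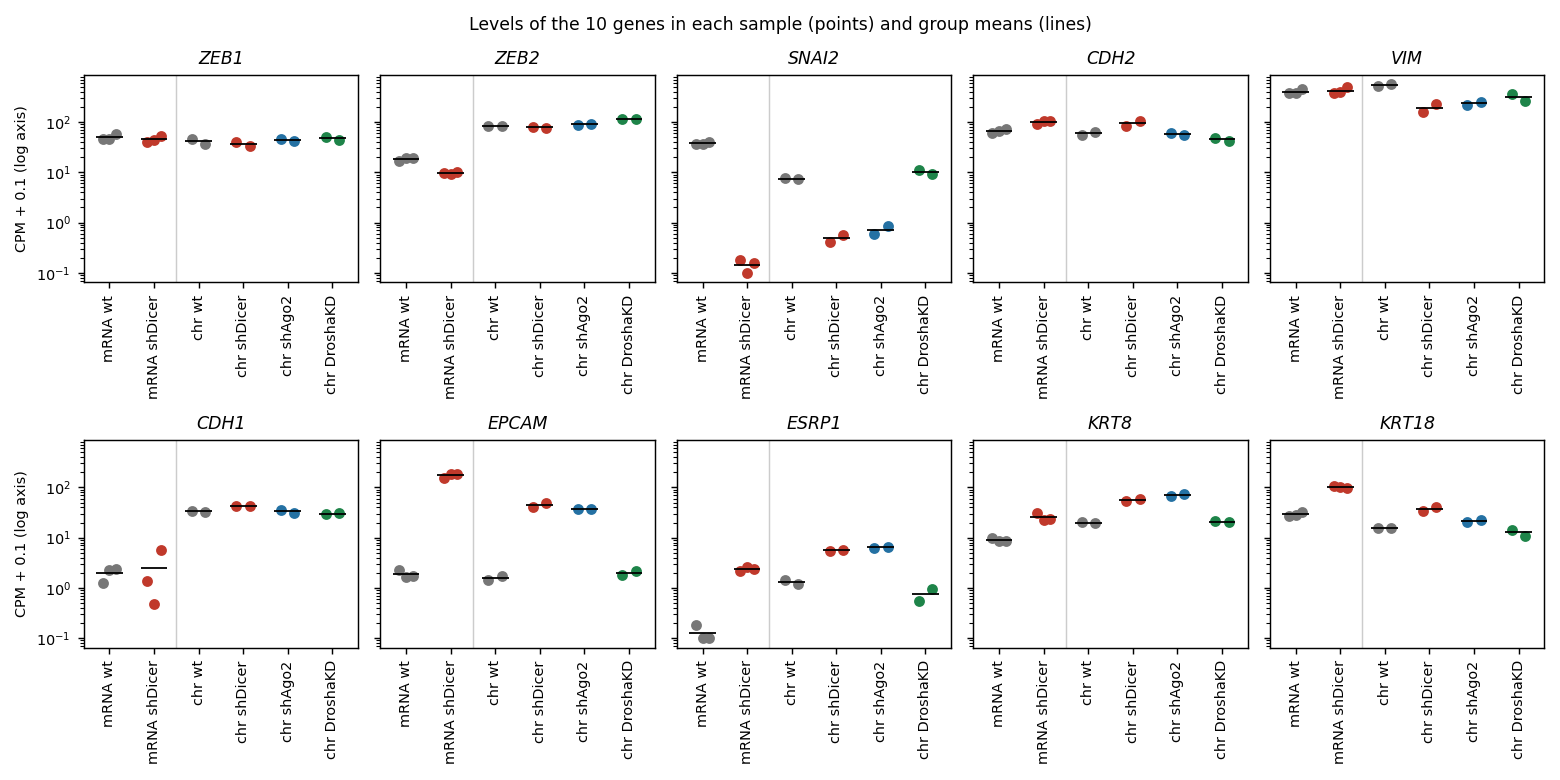
Level of each of the 10 genes in each of the 14 samples, as CPM + 0.1 on a log axis, with the mean of each group as a line. The grey line parts mRNA-seq from chrRNA-seq. SNAI2 sits far below wt in the shDicer and shAgo2 groups, EPCAM far above it, and ZEB1 overlaps wt in every knockdown group.

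ZEB1 (chr10:31318495-31529814, plus strand), the founding repressor of the axis, did not pass the threshold in any knockdown. In mRNA-seq it measured 46.3, 45.2 and 57.5 CPM in wt and 39.6, 43.97 and 52.1 CPM in shDicer. On chromatin it measured 45.7 and 36.4 CPM in wt, 40.7 and 33.7 CPM with shDicer, 46.2 and 41.4 CPM with shAgo2 and 49.5 and 44.7 CPM in DroshaKD. The knockdown samples overlapped wt in all 4 comparisons. The log2 change was −0.13 in shDicer mRNA, with a 95% interval from −0.41 to 0.15 (adjusted p = 0.400), and −0.14, 0.09 and 0.20 in shDicer, shAgo2 and DroshaKD chrRNA-seq (adjusted p = 0.394, 0.577 and 0.419). A rise of 0.15 or more on the log2 scale thus lay outside the interval for shDicer mRNA. Other ways of measuring ZEB1 gave values on both sides. The 50 tested genes nearest to it had a median log2 change of 0.74 in shDicer mRNA, and of 0.41 and 0.69 in shDicer and shAgo2 chrRNA-seq. Measured against these medians, ZEB1 was at −0.87, −0.55 and −0.60 (adjusted p = 2.08e-04, 0.00520 and 0.00262), called lower in the first and the last. Over protein-coding models alone, it was higher on chromatin, by 1.36 in shDicer and 1.42 in shAgo2, and not called (adjusted p = 0.163 and 0.138). These models held few ZEB1 counts on chromatin, 33.0 and 22.6 in wt, 124 and 36.9 in shDicer, and 147 and 32.4 in shAgo2, so 1 sample of each knockdown stood far above the others. Its antisense neighbour ZEB1-AS1 rose from 2.76, 2.67 and 2.66 CPM in wt to 6.58, 7.11 and 6.38 CPM in shDicer mRNA (log2 change 1.31, adjusted p = 8.17e-05).

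ZEB2 (chr2:144364364-144521057, minus strand), the partner repressor with the same number of miR-200 matches, fell in shDicer mRNA. It measured 16.9, 19.0 and 19.6 CPM in wt and 9.48, 9.01 and 10.2 CPM in shDicer, with no overlap. This was 1.93-fold lower, a log2 change of −0.95 ± 0.124 (SE, n = 3 and 3, edgeR adjusted p = 7.40e-05). On chromatin the values were 82.5 and 85.4 CPM for wt, 79.3 and 77.6 CPM for shDicer, 88.8 and 90.9 CPM for shAgo2 and 115.4 and 114 CPM for DroshaKD. The shDicer and shAgo2 log2 changes of −0.10 and 0.10 did not pass (adjusted p = 0.307 and 0.290), while the libraries labelled DroshaKD were 1.37-fold higher (0.45 ± 0.0698, adjusted p = 0.00774). Without either wt sample this rise was 0.43 to 0.48 and no longer called (adjusted p = 0.0798 to 0.120). The fall in mRNA depends on which transcripts are counted. With protein-coding models alone, ZEB2 measured 6.58, 10.8 and 6.66 CPM in wt and 6.60, 6.52 and 6.75 CPM in shDicer, and the log2 change of −0.29 was not called (adjusted p = 0.286). The antisense neighbour ZEB2-AS1 measured 1.48 and 2.53 CPM on wt chromatin and 5.14 and 3.86 CPM in DroshaKD (log2 change 1.17, edgeR adjusted p = 0.0322).

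SNAI2 (chr8:48917598-48921740, minus strand), which encodes the Slug repressor of CDH1, was the member with the deepest loss. It measured 35.8, 36.6 and 40.1 CPM in wt mRNA, and 0.0784, 0 and 0.0596 CPM in shDicer. These are 2 counts against 1246 over the groups, and wt was 799-fold higher, with an exact 95% interval of 221 to 6602 that covers counting error only. On chromatin SNAI2 stood at 7.53 and 7.14 CPM in wt, at 0.316 and 0.477 in shDicer and at 0.492 and 0.764 in shAgo2, and the libraries labelled DroshaKD kept 11.1 and 9.36 CPM. It was thus 18.2-fold lower in shDicer (log2 change −4.19 ± 0.263, adjusted p = 2.74e-07) and 11.7-fold lower in shAgo2 (−3.55 ± 0.239, adjusted p = 3.84e-07). In both experiments SNAI2 reached the filter on low counts in every wt sample, but not in every sample of shDicer or shAgo2. Against wt it could therefore be called in these groups only as lower. The DroshaKD change of 0.48 did not pass (adjusted p = 0.114), although both samples lay above wt.

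EPCAM (chr2:47345158-47387601, plus strand), an adhesion molecule of epithelial cells, rose most among the epithelial members with a level above the counting limit in every wt sample. It measured 2.19, 1.51 and 1.64 CPM in wt mRNA and 156, 183 and 181 CPM in shDicer, which was 95.9-fold higher (log2 change 6.58 ± 0.137, adjusted p = 5.10e-10). On chromatin it went from 1.36 and 1.64 CPM in wt to 40.8 and 49.2 in shDicer and to 37.2 and 37.0 in shAgo2. These were 29.9-fold and 24.7-fold rises (4.90 ± 0.160 and 4.62 ± 0.162, adjusted p = 1.29e-09 and 2.09e-09). In the libraries labelled DroshaKD it stayed at 1.71 and 2.07 CPM (0.34 ± 0.252, adjusted p = 0.519).

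ESRP1 (chr8:94641074-94707466, plus strand) encodes an RNA-binding protein that sets the epithelial pattern of splicing. In wt mRNA it had a single count in 1 sample, 0.0811 CPM, and none in the others, against 2.12, 2.50 and 2.32 CPM in shDicer. The ratio of 99 counts to 1 was 77.2, with an exact 95% interval of 13.5 to 3081, and the gene was called higher (adjusted p = 9.99e-06). ESRP1 reached the filter on low counts in every shDicer sample and in no wt sample. It could therefore enter this test only as a higher gene. On chromatin ESRP1 measured 1.30 and 1.07 CPM in wt, 5.42 and 5.56 in shDicer and 6.10 and 6.55 in shAgo2. The rises were 4.59-fold and 5.28-fold (adjusted p = 1.57e-05 and 5.46e-06). DroshaKD values of 0.457 and 0.871 CPM lay below wt, but the log2 change of −0.83 ± 0.339 was not called (adjusted p = 0.206).

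The keratins KRT8 and KRT18 form the filament pair of simple epithelia, and their genes overlap at their ends on opposite strands of chromosome 12 (KRT8 chr12:52897187-52949954, minus strand; KRT18 chr12:52948871-52952906, plus strand). KRT8 measured 9.81, 8.45 and 8.29 CPM in wt mRNA and 30.7, 22.3 and 23.1 CPM in shDicer (2.85-fold, adjusted p = 1.24e-05). On chromatin it went from 20.2 and 19.3 CPM in wt to 52.7 and 59.1 in shDicer and to 66.2 and 73.1 in shAgo2 (2.83-fold and 3.53-fold, adjusted p = 2.78e-07 and 4.35e-08). DroshaKD values of 21.2 and 20.1 CPM overlapped wt (log2 change 0.07, adjusted p = 0.768).

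KRT18 rose from 26.6, 28.7 and 32.7 CPM to 106, 104 and 98.6 CPM in shDicer mRNA (3.52-fold, adjusted p = 7.80e-08). On chromatin it measured 15.2 and 15.5 CPM in wt, 33.8 and 40.4 CPM with shDicer, 20.8 and 22.3 CPM with shAgo2 and 14.4 and 10.9 CPM in DroshaKD. It was called in shDicer (2.42-fold, adjusted p = 1.34e-05) and missed the threshold in shAgo2 (log2 change 0.49 ± 0.135, adjusted p = 0.0114) and DroshaKD (−0.28, adjusted p = 0.313). Of all 31-base stretches of their transcripts, 19.0% in KRT8 and 29.4% in KRT18 also occur in other genes, led by their processed pseudogenes, so reads of the keratins may be split with these copies. For the other 8 members this share was at most 3.95%.

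CDH1 (chr16:68737292-68835537, plus strand), the E-cadherin gene and the classic target of ZEB repression, was not called in any of the 4 comparisons with wt. In mRNA-seq it was low, with 1.13, 2.13 and 2.25 CPM in wt and 1.25, 0.378 and 5.66 CPM in shDicer. The shDicer samples lay on both sides of wt, and the log2 change of 0.48 had a 95% interval from −1.07 to 2.02 (adjusted p = 0.587). Without shDicer replicate 3 it was −1.15 (adjusted p = 0.0822). Over protein-coding models alone, CDH1 measured 0.0335, 0 and 0 CPM in wt mRNA and 0.918, 0.212 and 5.46 CPM in shDicer. On that count every shDicer sample lay above wt, and the gene was too low to be tested. On chromatin CDH1 measured 34.6 and 32.0 CPM in wt, 42.3 and 43.1 CPM with shDicer, 35.9 and 31.3 CPM with shAgo2 and 29.0 and 30.4 CPM in DroshaKD. The shDicer samples lay above wt, but the change of 0.36 ± 0.0907 missed the threshold (adjusted p = 0.00797), and shAgo2 and DroshaKD gave 0.01 and −0.16 (adjusted p = 0.914 and 0.377).

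Outside shDicer mRNA, most CDH1 counts belonged to models that are not annotated as protein coding. Protein-coding models held 0.682% of its counts in wt mRNA and 91.7% in shDicer mRNA, while on chromatin they held 23.3% (wt), 34.6% (shDicer), 34.7% (shAgo2) and 7.30% (DroshaKD). The model with most counts on wt chromatin was CDH1-210, which is annotated as a target of nonsense-mediated decay and took 64.6%. Counted over coding models alone, CDH1 measured 7.68 and 7.87 CPM on wt chromatin, 13.5 and 16.0 CPM with shDicer, 12.3 and 11.03 CPM with shAgo2 and 1.99 and 2.34 CPM in DroshaKD. On this count shDicer was called higher (log2 change 0.96, adjusted p = 6.42e-04) and DroshaKD lower (−1.78, adjusted p = 0.00586).

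**Figure D2:**
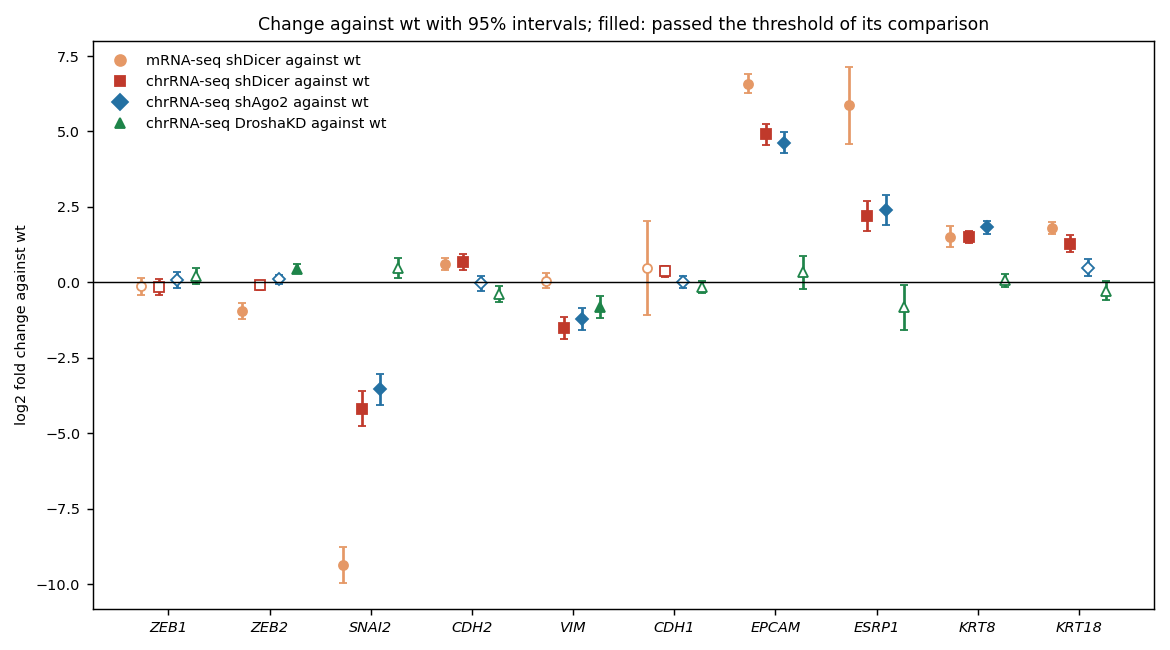
Log2 fold change of each member against wt with its 95% interval in the 4 comparisons with wt. Filled symbols passed the threshold of their comparison and open symbols did not. EPCAM, ESRP1 and KRT8 lie above 0 in the shDicer and shAgo2 comparisons, SNAI2 lies below 0 there, and the DroshaKD changes stay within 1 log2 unit of 0. The mRNA-seq points of SNAI2 and ESRP1 rest on 2 and 1 counts in their lower group and depend on the prior count of the fit.

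The mesenchymal members moved apart from each other. CDH2 (chr18:27932879-28177946, minus strand), the N-cadherin gene, measured 61.5, 65.6 and 71.4 CPM in wt mRNA and 90.7, 104 and 107 CPM in shDicer (1.52-fold higher, adjusted p = 1.71e-04). On chromatin it measured 56.2 and 63.6 CPM in wt and 83.5 and 107 CPM in shDicer (1.59-fold higher, log2 change 0.67 ± 0.118, adjusted p = 8.03e-04). CDH2 was thus higher together with the epithelial genes in shDicer cells. In shAgo2 it stood at 61.7 and 55.1 CPM and overlapped wt (−0.03, adjusted p = 0.842), and in DroshaKD at 48.2 and 42.8 CPM, below wt but not called (−0.39, adjusted p = 0.101). Leaving out wt replicate 1 or shDicer replicate 2 ended the CDH2 call on chromatin (adjusted p = 0.0176 and 0.00579). In mRNA the call ended without wt replicate 2 or shDicer replicate 2 (log2 change 0.59 in both, adjusted p = 0.00159 and 0.00114).

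VIM (chr10:17228241-17237593, plus strand), which encodes the filament protein vimentin, overlapped in mRNA between wt (377, 385 and 455 CPM) and shDicer (379, 391.6 and 496 CPM) (log2 change 0.06, 95% interval −0.19 to 0.30, adjusted p = 0.678). On chromatin it fell from 511 and 573 CPM in wt to 158 and 224 in shDicer and to 215 and 254 in shAgo2. It was 2.84-fold and 2.31-fold lower (−1.50 ± 0.170 and −1.21 ± 0.169, adjusted p = 2.97e-05 and 1.25e-04). The libraries labelled DroshaKD held 359 and 262 CPM, 1.75-fold lower than wt (adjusted p = 0.0253). This last call was lost without wt replicate 1, wt replicate 2, shAgo2 replicate 2 or DroshaKD replicate 2, with log2 changes between −0.88 and −0.59, and also with the counts scaled by transcript length (adjusted p = 0.0527). VIM-AS1, which runs against VIM, was higher in shAgo2 (5.41 and 6.39 CPM against 1.54 and 1.77 in wt, log2 change 1.83, adjusted p = 1.49e-05) and in DroshaKD (3.08 and 3.16 CPM, 0.91, adjusted p = 0.0408).

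Counted together, 5 of the 10 members rose and 2 fell in shDicer mRNA, where 29.8% of all genes tested were called (15.6% higher and 14.2% lower). On chromatin 5 rose and 2 fell in shDicer, 3 rose and 2 fell in shAgo2, and 1 rose and 1 fell in DroshaKD. Of all genes, 11% rose and 10.5% fell in shDicer chrRNA-seq, 12.5% and 12.1% in shAgo2, and 1.19% and 2.18% in DroshaKD, 21.6%, 24.5% and 3.38% in either direction. The DroshaKD share rests on 1110 genes, a number that moved between 72 and 1718 when 1 sample was left out, with 0 to 1 members higher and 0 to 2 lower. All 10 members passed the filter on low counts. In mRNA-seq ESRP1 reached its level of 0.785 CPM in every sample of shDicer alone, and SNAI2 and CDH1 in every sample of wt alone. On chromatin SNAI2 reached the level of 0.551 CPM in both wt samples, but not in every sample of shDicer or shAgo2. The 3 genes called higher in each of the first 3 comparisons were EPCAM, ESRP1 and KRT8. The median log2 change of the 10 members was 0.54 in shDicer mRNA, and 0.52, 0.10 and −0.05 in shDicer, shAgo2 and DroshaKD chrRNA-seq, while that of all genes tested lay between 0.00 and 0.01. The chrRNA-seq comparisons share their wt samples and are therefore not independent of each other.

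**Figure D3:**
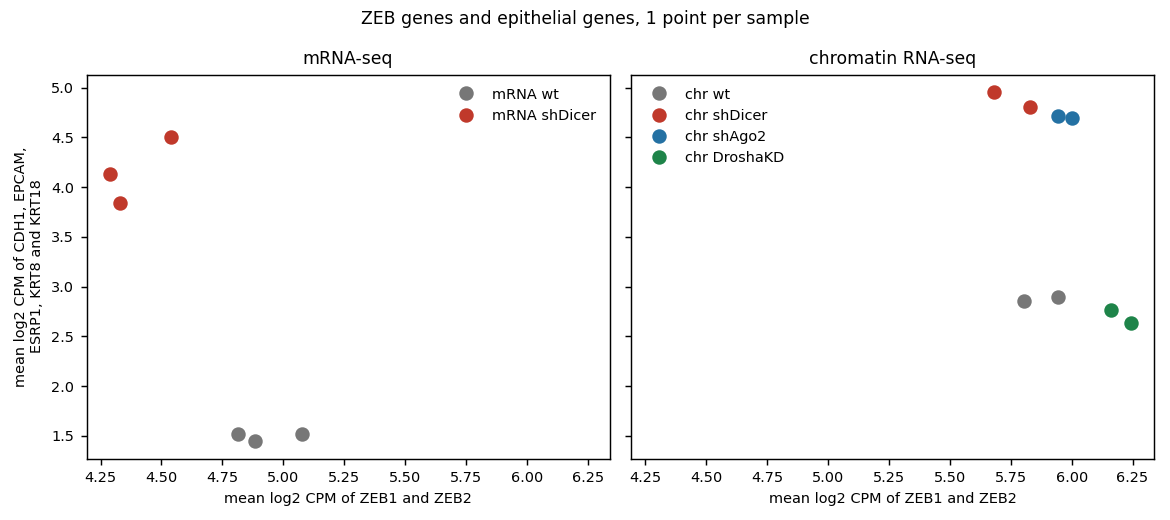
Mean log2 CPM of ZEB1 and ZEB2 (horizontal) against the mean log2 CPM of CDH1, EPCAM, ESRP1, KRT8 and KRT18 (vertical), 1 point per sample, with mRNA-seq on the left and chrRNA-seq on the right. The epithelial mean is 1.45 to 1.52 in wt mRNA and 3.84 to 4.50 in shDicer mRNA, and on chromatin the shDicer and shAgo2 samples lie above wt while the DroshaKD samples lie to its right. In mRNA-seq the shift along the ZEB axis comes mostly from ZEB2, and ESRP1 had 1, 0 and 0 counts in wt.

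Set against each other in the plot of ZEB and epithelial means, the shDicer mRNA samples lay lower on the ZEB axis and higher on the epithelial axis than wt. The mean log2 CPM of ZEB1 and ZEB2 was 4.81 to 5.08 in wt mRNA and 4.29 to 4.54 in shDicer, and that of the 5 epithelial members was 1.45 to 1.52 and 3.84 to 4.50. The lower ZEB mean came mostly from ZEB2 (−0.95), while ZEB1 overlapped wt (−0.13, not called). With protein-coding models alone the fall of ZEB2 was not called. ESRP1 had 1, 0 and 0 counts in wt mRNA, so the epithelial mean of wt depends in part on the prior count. On chromatin the ZEB mean was 5.80 to 5.94 in wt and overlapped it in shDicer (5.68 to 5.83), while the epithelial mean went from 2.86 to 2.89 in wt up to 4.81 to 4.96. In shAgo2 the ZEB mean was 5.94 to 6.003, its lower value level with the higher wt sample, and neither ZEB gene was called. The epithelial mean was again higher, at 4.69 to 4.72. In the libraries labelled DroshaKD the ZEB mean was 6.16 to 6.24 and the epithelial mean 2.64 to 2.77, above and below wt.

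Whether the knockdowns differed was tested directly between them. Between shDicer and shAgo2 chrRNA-seq 2 members passed an adjusted p under 0.005, where 2.71% of all genes did (1.37% higher and 1.34% lower in shDicer). CDH2 and KRT18 were higher in shDicer, by 0.71 ± 0.117 and 0.78 ± 0.124 on the log2 scale (adjusted p = 0.00322 and 0.00245). Both calls were lost when any single wt or shAgo2 sample or shDicer replicate 2 was left out (adjusted p between 0.00687 and 0.0594). For EPCAM, ESRP1 and SNAI2 the differences were 0.28, −0.20 and −0.64, with 95% intervals of 0.05 to 0.50, −0.57 to 0.17 and −1.55 to 0.27, and did not pass (adjusted p = 0.121, 0.534 and 0.426).

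Against the libraries labelled DroshaKD, 8 members differed from shDicer and 6 from shAgo2, beside 20.5% and 21.9% of all genes (11% higher and 9.51% lower in shDicer, 11.6% and 10.3% in shAgo2). EPCAM was higher than in DroshaKD by 4.56 in shDicer and by 4.29 in shAgo2, ESRP1 by 3.03 and 3.23, KRT8 by 1.43 and 1.75 and KRT18 by 1.56 and 0.77 on the log2 scale. SNAI2 was lower by these comparisons, with −4.66 and −4.02. CDH1 and CDH2 were called in shDicer alone, with 0.52 and 1.07 (adjusted p = 7.69e-04 and 3.01e-05). ZEB2 was lower than in DroshaKD in both (−0.55 and −0.35, adjusted p = 7.54e-05 and 0.00164), but over protein-coding models neither difference passed (−0.52 and −0.25, adjusted p = 0.00537 and 0.104). ZEB1 did not pass in either, with −0.34 and −0.10 (adjusted p = 0.0462 and 0.542), and its direction depended on the measure. Against its neighbours it was called lower in both, with −0.68 and −0.73 (adjusted p = 0.00127 and 7.18e-04). Over protein-coding models it was higher in both, with 1.34 and 1.40, and not called (adjusted p = 0.172 and 0.150). Without single shAgo2 or DroshaKD samples the ZEB2 and KRT18 differences between these groups were no longer called.

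The response to shDicer in mRNA and on chromatin was compared with an interaction term over all 14 samples. It was called for 4 members at an adjusted p under 0.005, where 4.48% of all genes were (2.69% with a positive and 1.79% with a negative term). ZEB2 fell further in mRNA than on chromatin (−0.92 ± 0.149, adjusted p = 2.64e-04), and SNAI2 did too (−5.44 ± 0.711, adjusted p = 2.39e-05). VIM, lower on chromatin alone, had a term of 1.50 ± 0.230 (adjusted p = 1.57e-04), and EPCAM one of 1.61 ± 0.323 (adjusted p = 0.00203). The EPCAM call was lost in 5 of 14 fits that left out 1 sample, with terms of 1.48 to 1.84 over all 14. These were the fits without mRNA wt replicate 2 or 3, either chromatin wt sample or chromatin shDicer replicate 1. ESRP1 missed the threshold (3.86 ± 0.870, adjusted p = 0.00519). With protein-coding models alone, the term of ZEB2 (−0.53, adjusted p = 0.178) was not called. Those of EPCAM and ESRP1 turned negative, with −1.14 and −2.90, and were not called either (adjusted p = 0.185 and 0.336). The lines, the time on doxycycline and the library preparation differed between the experiments as well, and these cannot be told apart from the kind of RNA.

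**Figure D4:**
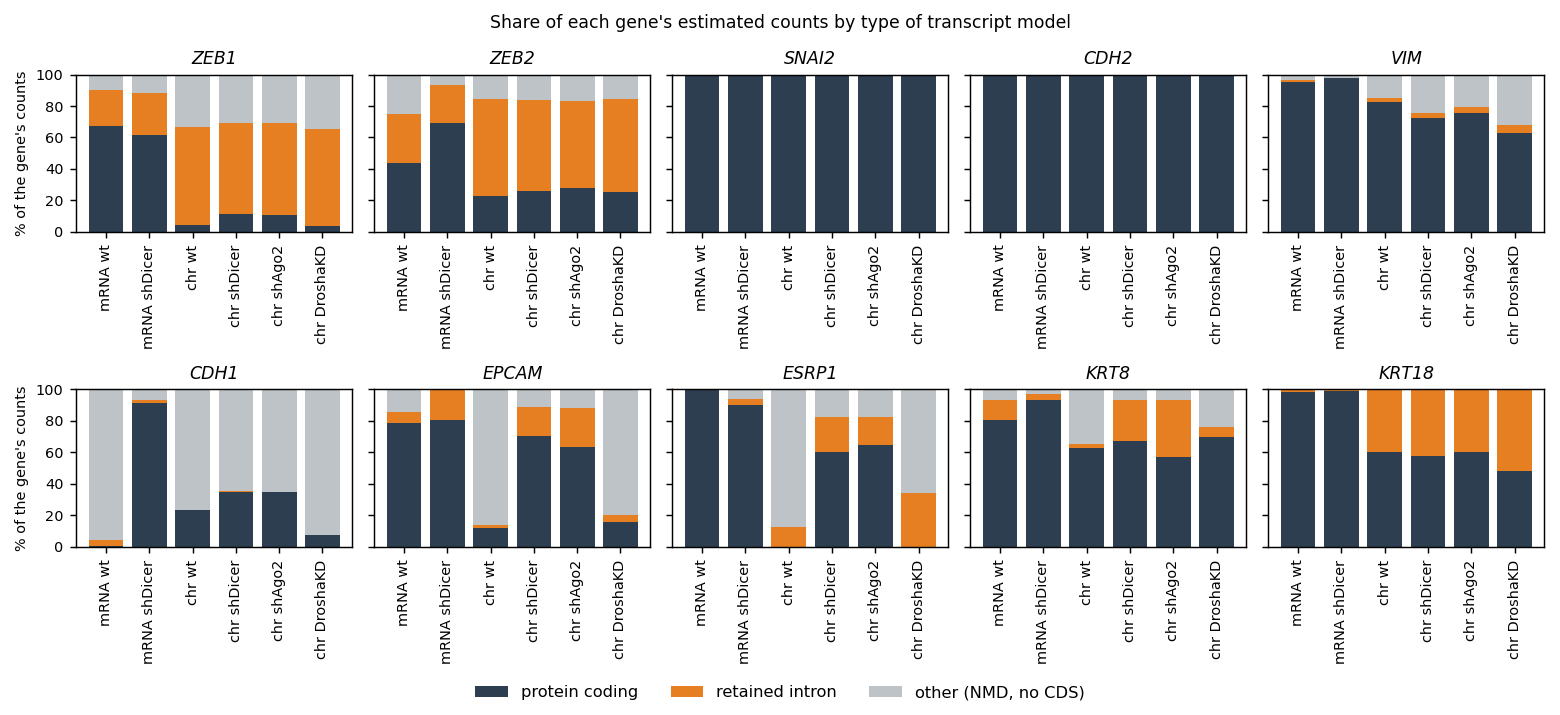
Share of the estimated counts of each member that fell on protein-coding models, on models with a retained intron and on other models (targets of nonsense-mediated decay and models without a coding sequence), as % of the counts of the gene summed over the samples of each group. ZEB1 and ZEB2 are mostly coding or mixed in mRNA and mostly retained intron on chromatin, and EPCAM, ESRP1 and CDH1 have a larger coding share in the shDicer and shAgo2 groups than in wt chromatin.

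Chromatin RNA holds transcripts that are still being made and spliced. The share of each type of model differed between the experiments. Lines, time on doxycycline and library preparation differed as well, and the cause was not tested. In ZEB1, protein-coding models held 67.4% of the counts in wt mRNA and 4.13% on wt chromatin, where retained-intron models held 62.6%. In ZEB2 they held 43.7% in wt mRNA and 69.1% in shDicer mRNA, and between 22.7 and 28.0% in the chrRNA-seq groups. Most ZEB counts on chromatin thus fell on models that are not annotated as protein coding. The epithelial genes behaved differently between groups. EPCAM counts on coding models were 11.9% on wt chromatin, 70.6% with shDicer, 63.7% with shAgo2 and 15.5% in DroshaKD. On wt chromatin 86.0% of them fell on EPCAM-204, a model marked for nonsense-mediated decay. Counted over coding models, EPCAM measured 0.141 and 0.219 CPM on wt chromatin, 28.8 and 34.7 in shDicer and 24.7 and 22.4 in shAgo2. ESRP1 had no counts on coding models in the wt and DroshaKD groups of chrRNA-seq, and 60.5% and 64.7% in shDicer and shAgo2. The coding share of VIM was 95.5% in wt mRNA and 62.6 to 82.7% on chromatin, and that of KRT18 was 98.7% and 48.3 to 60.4%.

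Between genes, levels can be compared as TPM, which accounts for transcript length. In wt mRNA, VIM led with 120 TPM ± 14.9 (SD, n = 3), far above KRT18 with 11.4 ± 1.57, SNAI2 with 10.1 ± 0.861, CDH2 with 10.03 ± 1.36 and ZEB1 with 9.32 ± 1.19, whose ranges overlapped. The sum over all ZEB2 models was 2.97, 14.9 and 11.4 TPM, of which ZEB2-242, a model of 100 nt, supplied 0, 12.03 and 8.49 TPM from 0, 2.92 and 2.00 counts. Over models of at least 200 nt, a limit chosen after seeing the data, ZEB2 stood at 2.90 ± 0.0696 TPM, below those 4 genes. On this sum it was 1.74 ± 0.240 TPM in shDicer mRNA, with no overlap. KRT8 stood near ZEB2 in wt mRNA with 3.57 ± 0.574, followed by EPCAM with 0.657 ± 0.0467 and CDH1 with 0.333 ± 0.0556, and ESRP1 had 0.0196 TPM in 1 sample and 0 in the others. In shDicer mRNA EPCAM was the member next to VIM, with 62.1 ± 11.03 TPM against 106 ± 27.6. SNAI2, level with ZEB1 in wt mRNA, was last with 0.0105 TPM.

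The promoters of 5 members were in the RefSeq table used (250 bases before to 50 after the start). They were searched for CACCTG and its reverse complement CAGGTG, the E-box that ZEB and Snail proteins bind. Of 35116 promoters, 20.6% held at least 1. ZEB1 held 1, at 57 bases before its start in that RefSeq table, which is not the gene start given above. The stretch on chr10:31318348-31318377 (GRCh38.p14) is shown on the plus strand with the E-box in capitals.
ZEB1 promoter: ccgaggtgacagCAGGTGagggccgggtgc
ZEB2, CDH2, VIM and KRT8 had no such letters in this window. CDH1, EPCAM, ESRP1, SNAI2 and KRT18 were not analysed here.

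**Figure D5:**
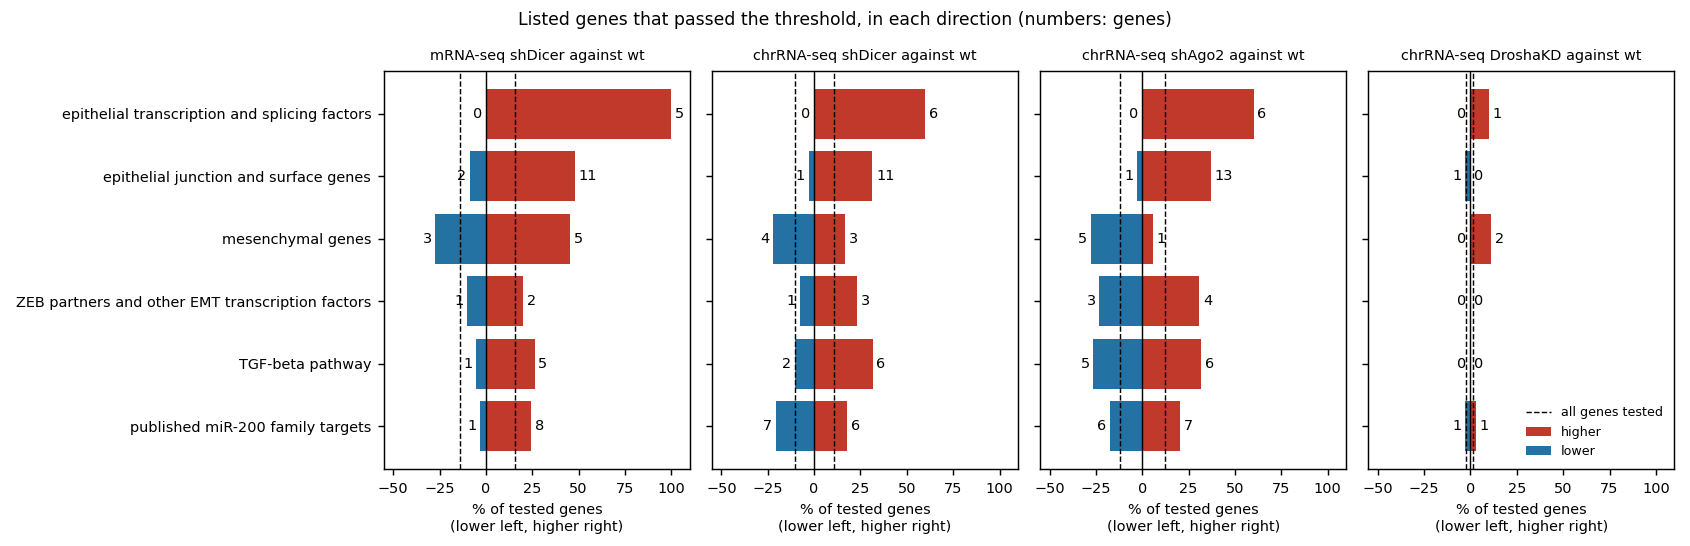
Share of the tested genes of each list that were called higher (red, to the right) or lower (blue, to the left) in the 4 comparisons with wt, with the number of genes at each bar and the share over all genes tested as dashed lines. The epithelial transcription and splicing factors have calls in the upward direction alone. In shDicer mRNA 2 of their 5 tested genes passed the filter on low counts only through the shDicer samples, so part of that bar follows from the filter.

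Other epithelial regulators moved with the members. Of a list of 12 epithelial transcription and splicing factors, 5 were tested in mRNA-seq. ESRP2 and OVOL2 reached the filter level in every shDicer sample and in no wt sample, so they could enter the test only as higher genes, and the other 7 factors were too low to be tested. TFCP2L1, GRHL1 and RBM47 reached that level in every sample of both groups, and rose by 3.15, 1.56 and 1.41 (adjusted p = 1.08e-07, 1.15e-05 and 9.06e-05). On chromatin 10 were tested, all of which reached the filter level in the wt samples as well. Of these, 6 rose in shDicer and 6 in shAgo2, none fell, and 1 rose in DroshaKD, beside 11%, 12.5% and 1.19% of all genes. ESRP2, which shares the splicing role of ESRP1, went from 0.324, 0.178 and 0.307 CPM in wt mRNA to 27.8, 20.1 and 22.5 CPM, a ratio of 86.4 with an exact 95% interval of 45.3 to 190. TFCP2L1, a factor of kidney collecting duct epithelium, rose by 1.81 in shDicer and by 1.81 in shAgo2 chrRNA-seq. GRHL1, a grainyhead factor that activates junction genes, rose on chromatin by 1.12 in shDicer, 1.02 in shAgo2 and 0.32 in DroshaKD (adjusted p = 5.18e-07, 9.39e-07 and 0.0486).

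Of 38 junction and surface genes of epithelia, 23 were tested in mRNA-seq, of which 11 rose and 2 fell in shDicer, beside 15.6% and 14.2% of all genes. Of the 11, 3 reached the filter level in every sample of shDicer alone. On chromatin 35 were tested, of which 11 rose and 1 fell in shDicer, 13 rose and 1 fell in shAgo2, and 1 fell in DroshaKD, beside 11% and 10.5%, 12.5% and 12.1%, and 1.19% and 2.18% of all genes. The medians were 1.08, 0.37, 0.40 and −0.08. Of the genes that rose on chromatin, 2 in shDicer and 2 in shAgo2 reached the filter level in every knockdown sample but not in wt. Against wt these could be called only as higher. MAL2, a protein of apical transport, had 0.811, 0.889 and 0.512 CPM in wt mRNA and 36.3, 43.4 and 41.7 CPM in shDicer. On chromatin MAL2 had no counts in wt and was at least 40.5-fold higher in shDicer and at least 41.3-fold higher in shAgo2. These bounds set the mean of the knockdown against a floor of 3 counts in the wt sample of least depth. The desmosomal genes PKP2 (1.83 in shDicer mRNA and 1.32 in shDicer chrRNA-seq) and JUP (1.63 in shAgo2 chrRNA-seq) were also higher, whereas CTNNB1 and DSG2 fell in mRNA by 0.63 and 0.48. On chromatin PPL was lower in shDicer and shAgo2 (−0.86 and −0.87), and CGN in DroshaKD (−0.49). Of the keratin list 2 of 12 genes were tested in mRNA-seq, where 1 rose and none fell in shDicer. On chromatin 5 were tested, of which 1 rose and 1 fell in shDicer and 1 rose and 1 fell in shAgo2. None passed in DroshaKD. These counts stand beside the same shares of all genes as for the junction genes. KRT13 went from 2.37 and 1.96 CPM on wt chromatin to 0.105 and 0.159 in shDicer and 0.148 and 0.164 in shAgo2. It reached the filter level in wt and not in these knockdowns, so against wt it could be called only as lower. KRT19, another keratin of simple epithelia, had no counts in wt and reached 36.9, 29.9 and 27.4 CPM in shDicer mRNA, at least 101-fold higher, and on chromatin was at least 157-fold higher in shDicer and at least 91.0-fold higher in shAgo2. In these comparisons KRT19 reached the filter level in the knockdown and not in wt, so it could be called only as higher.

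The list of 20 mesenchymal genes moved in both directions. In shDicer mRNA 5 of 11 tested genes rose and 3 fell, where 15.6% and 14.2% of all genes did, and 4 of the 11 reached the filter level in every sample of a single group. On chromatin 3 of 18 rose and 4 fell in shDicer (11% and 10.5% of all genes), 1 rose and 5 fell in shAgo2 (12.5% and 12.1%), and 2 rose in DroshaKD (1.19%). Of the 18, 1 in shDicer and 2 in shAgo2, SPARC among them, reached the filter level in every wt sample but not in every knockdown sample. Against wt these could be called only as lower. SPARC, a matrix glycoprotein, went from 39.3, 36.2 and 41.7 CPM in wt mRNA to 4 counts in all of shDicer, 416-fold lower with an exact 95% interval of 162 to 1530. DDR2, a collagen receptor, fell by 4.44 on the log2 scale in shDicer mRNA, and FOXF1, a mesenchymal forkhead factor, fell on chromatin by 2.38 in shDicer and 2.97 in shAgo2. In the other direction ACTA2 (2.10) and ITGA5 (1.25) rose in shDicer mRNA, and ITGA5 rose on chromatin by 0.98 in shDicer and 0.43 in DroshaKD. LOX rose by 0.85 in shDicer, GNG11 by 1.16 in shAgo2 and NT5E by 1.07 in DroshaKD chrRNA-seq.

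Among 34 published targets of the miR-200 family, 33 were tested in mRNA-seq, where 8 rose and 1 fell in shDicer with a median log2 change of −0.04, beside 15.6% and 14.2% of all genes. Of the 33, 2 reached the filter level in every shDicer sample but not in every wt sample, so they could be called only as higher. Of the 8 that rose, 1 was such a gene. On chromatin 6 of 34 rose and 7 fell in shDicer, 7 rose and 6 fell in shAgo2, and 1 rose and 1 fell in DroshaKD, with medians of 0.04, 0.11 and 0.00. The shares of all genes were 11% and 10.5% in shDicer, 12.5% and 12.1% in shAgo2, and 1.19% and 2.18% in DroshaKD. PTPRD, a receptor phosphatase, rose by 3.47 in shDicer mRNA and by 4.50 and 4.58 in shDicer and shAgo2 chrRNA-seq. LEPR rose by 1.36 in shDicer mRNA. MAML2, a coactivator of Notch signalling, rose on chromatin by 1.65, 2.22 and 0.81 in shDicer, shAgo2 and DroshaKD. In the other direction FLT1 was lower in shDicer mRNA (−0.93). On chromatin BAP1 was lower in shDicer and shAgo2 (−0.70 and −0.98). PPM1F was lower in shDicer chrRNA-seq (−0.71), PLCG1 in shAgo2 (−0.78) and TUBB3 in DroshaKD (−0.78).

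The samples were checked for markers of other cells. The summed level of 7 HEK293 markers was 59.5 to 69.1 CPM in wt mRNA and 332 to 781 CPM in shDicer mRNA, and on chromatin 82.0 to 83.7 (wt), 159 to 230 (shDicer), 119 to 119.5 (shAgo2) and 59.5 to 61.2 CPM (DroshaKD). The higher sums in shDicer and shAgo2 followed NEFL, a neurofilament gene, while most of the other markers did not rise. NEFL had 13.9 to 18.3 CPM in wt and 297 to 756 CPM in shDicer mRNA. NEFM, another neurofilament gene, fell from 6.05 to 6.45 CPM down to 0.238 to 0.548 CPM in shDicer mRNA, and on chromatin from 24.1 and 24.8 CPM to 2.32 and 2.70 in shDicer. INA, a further neuronal filament gene, fell from 20.1 to 23.4 CPM down to 11.1 to 12.2 CPM in shDicer mRNA, and on chromatin from 27.6 and 29.8 CPM to 5.0 and 5.62 in shDicer. In DroshaKD chrRNA-seq NEFM stood at 11.6 and 11.6 CPM and INA at 17.6 and 15.5 CPM. NEFL stood there at 12.2 and 11.1 CPM, against 13.1 and 10.9 CPM on wt chromatin. In shDicer mRNA 4 of the 7 were tested, of which 1 rose and 2 fell, with a median log2 change of −0.55. NEFM reached the filter level there in every sample of wt alone, so it could be called only as lower. On chromatin all 7 were tested, of which 2 rose and 2 fell in shDicer, 1 rose and 3 fell in shAgo2, and 2 fell in DroshaKD, with medians of −0.22, −0.64 and −0.05. The 5 markers of breast or other carcinoma epithelium summed to 0.324 to 0.623 CPM in wt mRNA and 1.36 to 1.67 in shDicer, and on chromatin to 11.3 to 11.999 (wt), 24.5 to 29.5 (shDicer), 21.1 to 24.1 (shAgo2) and 13.5 to 13.8 CPM (DroshaKD). Only GATA3 and ESR1 of these were tested on chromatin, and they moved apart. GATA3 went from 7.17 and 6.82 CPM in wt to 26.7 and 22.0 in shDicer and 19.9 and 17.4 in shAgo2, and was called higher in both. ESR1 went from 4.15 and 5.12 CPM in wt to 2.68 and 2.23 in shDicer, where it was called lower, and stood at 4.03 and 3.60 in shAgo2. In mRNA-seq 3 of these 5 markers had no counts in any sample of a group. The 7 fibroblast and stroma markers summed to 3.74 to 4.70 CPM in wt mRNA and 4.86 to 6.08 in shDicer, and the 6 blood markers to 0.486 to 0.921 and 9.09 to 12.1, the latter through HBB. The 4 endothelial markers stayed at or below 0.978 CPM in mRNA-seq. On chromatin the fibroblast and stroma markers summed to 39.7 to 40.6 (wt), 46.9 to 47.0 (shDicer), 57.0 to 59.2 (shAgo2) and 38.9 to 43.6 CPM (DroshaKD). In the same order the blood markers summed to 27.5 to 30.2, 20.3 to 22.0, 21.2 to 21.6 and 27.2 to 28.4 CPM. Those of endothelium summed to 17.5 to 18.5, 20.1 to 22.3, 18.8 to 19.8 and 19.8 to 20.1 CPM. The part of other cells in the rise of the epithelial members was not tested.

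The genes whose course over the 14 samples was most like that of ZEB1 and ZEB2 were sought among 12293 genes by the root mean square difference of log2 CPM, after the wt mean of each experiment was subtracted. They were GAB1 (0.106), TRIM23 (0.113) and THUMPD2 (0.121) for ZEB1, where the median over the candidates was 0.398. For ZEB2 they were TRIQK (0.116), PLAG1 (0.120) and RBM7 (0.122), with a median of 0.572. The distance carries no test.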

How the data were processed

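mRNA-seq (6 samples) and chrRNA-seq (8 samples) of HEK293 cells were analysed, and 6 small RNA samples of the same study were not used here. The labels give polyA RNA for mRNA-seq, while the methods describe ribosomal RNA depletion. The authors quantified the libraries with kallisto, in a strand-specific mode as stated under chrRNA-seq, against Ensembl cDNA and ncRNA and deposited, for each transcript, an estimated count that is not normalized and a TPM value scaled by effective length. The transcript length and effective length columns are also deposited per the file headers. How reads were trimmed is not given in the sources used here.

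Of 217082 transcripts, 193697 (89.2%) were matched to 57087 genes of GENCODE release 44, with 93.4 to 94.8% of the counts of a sample. Estimated counts were summed per gene and rounded. Genes were filtered with filterByExpr, scaled with TMM and tested with edgeR 4.0.16 in R 4.3.3 (quasi-likelihood, Benjamini-Hochberg adjustment), in a fit of the 6 mRNA-seq samples (15090 genes), a fit of the 8 chrRNA-seq samples (32874 genes) and a joint fit for the interaction (32812 genes). Thresholds followed the study, with 0.005 for comparisons between knockdowns and the interaction. Standard errors were taken as the log2 change divided by the root of F. CPM values are TMM-scaled. The procedure was tested on simulated data. Intervals of count ratios are exact and two-sided and cover counting error only. Replicates of a group differed by more than counting noise in each of 10 pairs.

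The members and gene lists were chosen with earlier results of these data known. All 10 members are reported in every comparison. From each list, up to 2 genes per direction and comparison with wt are named, those with the smallest adjusted p at a mean log2 CPM of at least 1, in addition to DICER1, AGO2 and DROSHA. The markers NEFL, NEFM, INA, HBB, GATA3 and ESR1, the keratin KRT13 and the factors OVOL2 and RBM47 were named after their values were seen. Alternatives were DESeq2 1.42.0, library size alone, no filter, unmatched transcripts kept, protein-coding models alone, counts scaled from TPM by transcript length, a replicate block, the median of 50 neighbouring genes as an offset, other thresholds and leaving out each sample. FOXC2 and FOXF2 were not analysed here.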

Additional observations from a re-analysis of the deposited data

Results flagged for a closer look

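The response to shDicer differed between mRNA-seq and chrRNA-seq for 4 of the 10 members by the interaction term of edgeR (adjusted p under 0.005), given as the log2 change in mRNA minus that on chromatin. For ZEB2 it was −0.92, with 3 of 3 shDicer samples below every wt sample in mRNA (−0.95) and a change of −0.10 on chromatin. For SNAI2 it was −5.44, with all shDicer samples below wt in both kinds of RNA, and it rests on 2 counts in shDicer mRNA. For VIM it was 1.50, with overlapping samples in mRNA (0.06) and both shDicer samples below wt on chromatin (−1.50). For EPCAM it was 1.61, with all shDicer samples above wt in both (6.58 and 4.90). The ZEB2 and EPCAM terms were lost with protein-coding models alone and with counts scaled by transcript length. Cell line, time on doxycycline and library preparation differ along with the kind of RNA, and their part cannot be told apart from it.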

How the results depend on the processing

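The members' values against wt and between knockdowns were recomputed under every alternative, 14 of them leaving out 1 sample. Of single-gene values, 1452 kept direction and call, 68 lost a call, 44 gained one and 41 changed sign. Of counts, 380 stayed within 1.5 times and 120 did not. With chromatin pairs of 2 samples, a sample left out leaves a lone sample that is assumed to vary like the other groups. The cause of the changes below was not tested, except that the stricter or looser thresholds change counts by construction.

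At an adjusted p under 0.05, the genes called were 8663 in shDicer mRNA, 12395 and 13501 in shDicer and shAgo2 chrRNA-seq, 3215 between shDicer and shAgo2 (1 member lower), 11813 and 12417 for shDicer and shAgo2 against DroshaKD (4 members lower with shDicer) and 3772 for the interaction. With a log2 change above 1 as well, they were 2254 in mRNA (1 member lower), 2737, 3278 and 123 in shDicer, shAgo2 and DroshaKD (0 members higher and 0 lower in DroshaKD), 289 between shDicer and shAgo2 (0 members higher), 2531 and 2835 against DroshaKD (1 member lower in each) and 970 for the interaction (1 member lower). At 0.005, DroshaKD had 84 genes and 0 members.

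With counts scaled from TPM, 1 member fell in mRNA, DroshaKD had 347 genes, 0 members lower and KRT8 at −0.14, shDicer against shAgo2 had 397 genes and 1 member higher, shAgo2 gave ZEB1 −0.014 and CDH1 −0.067, and the interaction had 718 genes, 1 member lower, ZEB1 0.052, CDH1 −0.047, CDH2 0.011 and KRT8 0.26. With protein-coding models, 1 member fell in mRNA, shDicer and shAgo2 chrRNA-seq had 3584 and 4146 genes, shDicer gave ZEB1 1.36 and ZEB2 0.14, DroshaKD had 2 members lower, shDicer against shAgo2 had 201 genes and 0 members higher, shDicer and shAgo2 against DroshaKD had 3414 and 3608 genes, 1 member lower in each and ZEB1 at 1.34 and 1.40, and the interaction had 937 genes, 1 member higher, 1 lower, EPCAM −1.14 and ESRP1 −2.90. With the neighbourhood median as an offset, VIM was −0.35 in mRNA, shAgo2 gave ZEB1 −0.60, ZEB2 −0.057 and CDH2 0.077, shDicer against shAgo2 had 420 genes, 0 members higher, 1 lower and ZEB1 0.048, and CDH2 had an interaction of 0.13.

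With unmatched transcripts kept, DroshaKD had 398 genes and 0 members lower, shDicer against shAgo2 244 genes and 0 members higher, and the interaction 879 genes and 1 member higher. With library size only, CDH2 in shAgo2 was 0.0029. Without a filter, DroshaKD had 2 members lower, shDicer against shAgo2 1414 genes and the interaction 2342. With only the groups compared in the fit, DroshaKD had 2 members lower and shDicer against DroshaKD 4194 genes. DESeq2 gave 2668 genes and CDH1 −0.077 for the interaction. On TPM in place of CPM, 1 member lay below wt in every mRNA sample (2 over models of at least 200 nt, chosen after seeing the data), and 2 members held a miR-200 match of 8 bases.

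Same-numbered samples correlated at 0.0839, 0.0556 and 0.181 in mRNA and from −0.303 to 0.118 on chromatin, so the numbers were not taken as pairs. With the replicate block, DroshaKD had 452 genes and 0 members lower, shDicer against shAgo2 413 genes and 0 members higher, shAgo2 against DroshaKD 1 member lower, and CDH1 an interaction of −0.10. With the DroshaKD numbers crossed in the block, an alternative chosen after seeing the data, DroshaKD had 3111 genes and 2 members lower, shDicer against shAgo2 1931 genes, and CDH1 an interaction of −0.068.

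Leaving out each sample in turn gave 2725 to 4692 genes in mRNA, 3843 to 7541 in shDicer, 4448 to 8627 in shAgo2 and 72 to 1718 in DroshaKD chrRNA-seq (0 to 1 members higher, 0 to 2 lower), 107 to 1109 between shDicer and shAgo2 (0 to 2 members higher), 3688 to 7659 between shAgo2 and DroshaKD (1 to 2 members lower) and 722 to 1611 for the interaction (1 to 3 members higher). In mRNA CDH1 ranged from −1.15 to 0.97 and VIM from −0.068 to 0.14. On chromatin ZEB1 ranged from −0.30 to 0.027 in shDicer, and in shAgo2 ZEB1 from −0.063 to 0.26, CDH1 from −0.089 to 0.11 and CDH2 from −0.13 to 0.053. The interaction ranged from −1.63 to 0.61 for CDH1, −0.31 to 0.060 for CDH2, −0.20 to 0.039 for KRT8 and −0.22 to 0.11 for ZEB1. CDH1 was no longer called between shDicer and DroshaKD without DroshaKD replicate 1 (adjusted p = 0.00717). Depth limits ESRP1 in wt mRNA, which stood below the floor of 3 counts, and CDH1 in mRNA, with 5 to 95 counts per sample.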

Other observations

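Partners of ZEB proteins and other factors of the epithelial-mesenchymal transition were tested as a list of 14 genes. In shDicer mRNA 2 of 10 tested genes rose and 1 fell, and on chromatin 3 of 13 rose and 1 fell in shDicer, 4 rose and 3 fell in shAgo2, and none passed in DroshaKD. Of all genes, 15.6% and 14.2% did so in shDicer mRNA, 11% and 10.5% in shDicer chrRNA-seq and 12.5% and 12.1% in shAgo2 chrRNA-seq. TCF4, an E-box binding factor, rose by 1.11 in shDicer mRNA, from 52.5, 57.0 and 52.9 CPM to 107, 126 and 117 CPM, and by 1.36 and 1.09 in shDicer and shAgo2 chrRNA-seq. KDM1A, a histone demethylase recruited by Snail proteins, rose by 0.38 in shDicer mRNA and 0.61 in shDicer chrRNA-seq, while SIRT1, a deacetylase, fell by 0.59 in shDicer mRNA and by 0.53 and 0.59 in shDicer and shAgo2 chrRNA-seq. SNAI1, the paralog of SNAI2, went the other way from it on shAgo2 chromatin, from 0.771 and 1.14 CPM in wt to 4.13 and 4.37 CPM (log2 change 2.15, adjusted p = 5.79e-05), and TWIST2 fell there by 2.17.

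The TGF-beta pathway, which induces ZEB and Snail factors in many epithelia, was tested as 19 genes, of which 5 rose and 1 fell in shDicer mRNA (median log2 change 0.40), 6 rose and 2 fell in shDicer chrRNA-seq and 6 rose and 5 fell in shAgo2 chrRNA-seq. These counts stand beside the same shares of all genes, 15.6% and 14.2%, 11% and 10.5%, and 12.5% and 12.1%. None passed in DroshaKD. The receptor gene TGFBR2 rose by 0.92 in shDicer mRNA and by 1.11 in shAgo2 chrRNA-seq, while the receptor gene TGFBR1 was lower in shDicer chrRNA-seq (−0.60). SMAD2 and SMAD3, which carry the signal, rose by 0.60 in shDicer mRNA and by 0.64 in shDicer chrRNA-seq. SKI rose by 0.87 in shDicer chrRNA-seq. ID1, a target of BMP signalling, fell by 1.11 in shDicer mRNA and by 1.22 in shAgo2 chrRNA-seq, and BMP7 fell on chromatin by 0.41 in shDicer and 0.92 in shAgo2.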
